A study of Mus musculus with 24 samples.

Results

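Complex I (NADH:ubiquinone oxidoreductase) is the entry point of electrons into the mitochondrial respiratory chain. Its core subunits carry the flavin, the iron-sulphur clusters and the proton-pumping machinery, while the many accessory subunits, most of them small, are needed for its assembly and stability. The proton-pumping core subunits are encoded by mitochondrial DNA, and all other subunits are nuclear genes translated on cytosolic ribosomes. The mRNAs described here were the entries with a single symbol of the form Ndufa, Ndufb, Ndufc, Ndufs, Ndufv or Ndufab followed by digits, and a count above 0 in all 24 libraries. The rule found 33 genes among 19895 entries, of which 11438 could be tested, and no single-symbol entry of the family failed the count filter. They comprised the 7 nuclear core subunits, 25 accessory subunits and Ndufa4, a protein now counted with complex IV and therefore described apart. Another 4 entries that join a subunit with a neighbouring gene (Ndufa1, Ndufa2, Ndufa13 and Ndufb11) were not members.

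N organoids were grown from pancreatic ductal isolates of wild-type C57Bl/6J mice, and KP organoids from tumours of mice of the same background in which Pdx1-Cre, a Cre driven by a promoter active in pancreatic progenitors, switches on conditional mutant alleles that include Trp53 +/LSL-R172H. Each type was treated for 1 h with vehicle (DMSO) or with 10 nM CR-31, a synthetic rocaglate that inhibits eIF4A, the RNA helicase of the cap-binding complex eIF4F. Cycloheximide, which holds ribosomes on mRNA, was added for the final 5 min to all cultures. In every lysate, mRNA bound by 3 or more ribosomes (polysome-associated mRNA) and mRNA taken before the gradient (total mRNA) were sequenced, which gave 8 groups of 3 libraries.

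Each library held between 47308461 and 267463046 counted reads, and the members between 877 and 81371, so the spread between lysates far exceeds counting error. The sources used here do not say whether the replicates came from separate animals or lines, and p-values measure only the spread between these samples. N and KP libraries were sequenced on separate lanes or runs, so lane and organoid type cannot be told apart. Within each type, replicates 1 and 3 had both treatments on the same lane or run, while in replicate 2 vehicle and CR-31 were on different ones. All 7 duct markers (among them Krt19, Krt8, Krt18, Epcam, Sox9 and Cftr) were tested genes, with a summed level of 6460 to 12200 CPM (counts per 1000000 counted reads) in N and 4800 to 8830 CPM in KP. Acinar markers summed to at most 5.60 CPM, endocrine markers to at most 0.0956 CPM, with Ins1, Ins2 and Gcg at 0 in every library, and endothelial markers to at most 0.231 CPM. Fibroblast markers summed to 0.42 to 0.896 CPM in N and 0.0455 to 0.286 CPM in KP. The 3 immune markers (Ptprc, Cd74 and Lyz2) summed to 3.58 to 26.9 CPM in N, and to 0.162 to 0.926 CPM in 11 of the 12 KP libraries. In the polysome library of KP vehicle replicate 3 they summed to 33 CPM, of which Lyz2 made up 23.8 CPM. These markers moved with organoid type, and their part in the differences between KP and N was not tested. Without KP vehicle replicate 3, 26 members were called in the comparison of KP with N polysomes, against 28 with it. Vehicle and CR-31 lysates of the same number deviated together from their group means. In polysome-associated mRNA the correlation across genes was lowest for N replicate 3 (0.554, against 0.723 to 0.807 for the others), and in total mRNA it was lowest for KP replicates 1 and 2 (0.455 and 0.585) and N replicate 3 (0.648). Leaving out N replicate 3 moved several counts, and values without it are given beside the results it moved most.

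The members differ widely in protein length, the property used below to set small accessory subunits against long core subunits. In the GENCODE M21 annotation of GRCm38, 17 members encode up to 150 residues (short), 11 encode between 150 and 300 (middle) and 5 more than 300 (long). The shortest are Ndufc1 with 76 residues (chr3:51404677-51408988), Ndufa4 with 82 and Ndufa3 with 84 (chr7:3617373-3620327). The long members include Ndufa10, Ndufa9 and the core subunits Ndufv1 and Ndufs1. Ndufs1 is by far the longest, with 727 residues (chr1:63143596-63176833). The core subunits Ndufs3, Ndufs7, Ndufs8 and Ndufv2 have between 212 and 263 residues.

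The start codons are shown because several members carry the letters of the TISU element, a start site known from mRNAs with a very short 5′ leader. The 11 letters around the start codon that the largest number of members shared were AAGATGGCGGC, the core of that element. Searched on the sense strand with their ATG at the annotated start codon, and chosen from these members, they were found in 6 of 33 members (18.2%), and in 124 of 11079 tested genes with an annotated window (1.12%). The lines give 24 bases of the GENCODE transcripts of 5 such members, 5′ to 3′, with the start codon in capitals, followed by Ndufs1 and Ndufa3, which lack these letters.
Ndufa6: ttcctcggcaagATGgcggccgcg
Ndufa9: ttgtgggagaagATGgcggccgcc
Ndufs4: gcctacaggaagATGgcggcggtc
Ndufs6: gtcaccggcaagATGgcggcggtg
Ndufs7: gccgaggccaagATGgcggcgctg
Ndufs1: aggaaagccatcATGttaaggata
Ndufa3: gccaagaacaagATGgccgggaga
The annotated 5′ leader of these transcripts with the letters was 13 nucleotides for Ndufa9, 24 for Ndufs7, 94 for Ndufa6, 96 for Ndufs6 and 202 for Ndufs4. Ndufs1 has an annotated leader of 242 nucleotides and Ndufa3 one of 25. A match is a description of the letters and not a measured initiation site.

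Levels per transcript length were read from the deposited RPKM values. In total mRNA of vehicle-treated N organoids, the median over the 3 lysates ranged from 9.07 RPKM for Ndufs1 to 592 RPKM for Ndufa6, with a median of 130 RPKM over the 33 members, against 6.56 RPKM over all tested genes. The core subunits had a median of 77.7 RPKM (9.07 to 120) and the accessory subunits one of 142 RPKM (26.4 to 592). The 3 lysates of Ndufs1 spanned 6.82 to 10.6 RPKM and did not overlap with those of any other member. Next lowest was Ndufa11 (22.8 to 31.6 RPKM), whose RPKM was scaled to a length of 2661 nucleotides although the annotated coding sequence has 429, so that its level per length is uncertain. At the upper end, Ndufa6 (386 to 635 RPKM), Ndufa4 (412 to 661) and Ndufa3 (268 to 431) overlapped, and their order is not resolved. In KP organoids Ndufa6 was at 328 RPKM (293 to 341), below Ndufa4 at 583 RPKM (526 to 643), and Ndufs1 was again the lowest at 11.1 RPKM (10.8 to 12.5).

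The first comparison asked how the polysome-associated mRNA of KP organoids differs from that of N organoids under vehicle. Most complex I subunits were higher in KP polysomes. In edgeR's test with a threshold of 0.25 on the Benjamini-Hochberg adjusted p, 28 of 33 members were higher and 0 lower, where 20.9% of all tested genes were called higher and 22.2% lower. The median log2 fold change of the members was 0.78, against -0.03 over all tested genes. Members that did not pass, named after their values were seen, included Ndufs1 (-0.13), Ndufa6 (-0.26), Ndufb5 (0.11) and Ndufa10 (0.42). Without N replicate 3 Ndufa10 was at 0.71 and passed (edgeR adjusted p = 0.0479). In 17 of 33 members the 3 KP lysates lay above all 3 N lysates, which held for 18% of all tested genes. In these bulk samples fewer cells with an mRNA and less of it per cell cannot be told apart.

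With all lysates the largest differences were in the membrane-arm subunits Ndufb10 and Ndufb7 and in the core subunit Ndufs8, closely followed by Ndufb2 (1.16 ± 0.34). The order is not resolved. Without N replicate 3 Ndufs8 (1.57), Ndufs7 (1.47), Ndufb2 (1.44) and Ndufab1 (1.38) lay above Ndufb10 (1.27) and Ndufb7 (1.20). Ndufb10, an accessory subunit of the intermembrane-space face (chr17:24722060-24724478), had 84.5, 90.3 and 85 CPM in the N polysome libraries and 233, 184 and 216 CPM in those of KP. The groups did not overlap, and its log2 fold change was 1.28 ± 0.22 (standard error, n = 3 per group, edgeR adjusted p = 0.00545). Ndufb7, another accessory subunit of that face (chr8:83566671-83571626), had 85.7, 79.6 and 75.6 CPM in N and 212, 203 and 153 CPM in KP. Again every KP lysate was above every N lysate, by a log2 fold change of 1.24 ± 0.20 (edgeR adjusted p = 0.00395). For Ndufs8, which binds iron-sulphur clusters between the flavin and the quinone site, the N libraries had 56, 46.2 and 97.5 CPM and the KP libraries 169, 154 and 130 CPM. N replicate 3 was the highest N library, the groups did not overlap, and the log2 fold change was 1.18 ± 0.27 (edgeR adjusted p = 0.0165).

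Short members were higher in KP polysomes as well. Ndufc1, a small membrane-arm subunit, had 76.5, 79.8 and 82.7 CPM in N and 175, 156 and 146 CPM in KP. These groups are far apart for their spread, and the log2 fold change was 1.00 ± 0.24 (edgeR adjusted p = 0.0186). Ndufa3, another membrane-arm subunit, had 103, 116 and 138 CPM in N and 238, 246 and 190 CPM in KP, with no overlap and a log2 fold change of 0.92 ± 0.24 (edgeR adjusted p = 0.0254). Ndufa7, an accessory subunit of the peripheral arm, had 159, 142 and 218 CPM in N and 310, 459 and 254 CPM in KP. The spread within KP was wide, the groups did not overlap, and the log2 fold change was 0.98 ± 0.30 (edgeR adjusted p = 0.0438). Ndufa4 had 206, 212 and 193 CPM in N and 382, 284 and 274 CPM in KP, a log2 fold change of 0.62 ± 0.24 (edgeR adjusted p = 0.102).

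Among the core subunits 5 of 7 were higher in KP polysomes, where 20.9% of all tested genes were. The median log2 fold change of the core subunits was 0.67. Ndufv2, which carries an iron-sulphur cluster beside the flavin, had 95.8, 101 and 121 CPM in N and 190, 154 and 162 CPM in KP. Its groups did not overlap and its log2 fold change was 0.67 ± 0.22 (edgeR adjusted p = 0.0605). Ndufs3, a subunit of the quinone module, had 75.8, 65.5 and 110 CPM in N and 148, 166 and 103 CPM in KP, a log2 fold change of 0.73 ± 0.28 with overlapping groups (edgeR adjusted p = 0.0902). Ndufv1, which binds NADH and the flavin, had 70.5, 64.2 and 142 CPM in N and 110, 173 and 140 CPM in KP. Here N replicate 3 lay among the KP libraries, and the log2 fold change was 0.61 ± 0.30 (edgeR adjusted p = 0.184). Ndufs7, which holds the last iron-sulphur cluster before the quinone, had 52.3, 44.2 and 125 CPM in N and 149, 164 and 87.6 CPM in KP. Replicate 3 of each type crossed into the range of the other, and the log2 fold change was 0.86 ± 0.40 (edgeR adjusted p = 0.164). Ndufs8 and Ndufv2 kept their call in all 18 fits that left out a lysate or replicate, Ndufs3 in 13 and Ndufs7 and Ndufv1 in 10 each. Without N replicate 3 the log2 fold change was 1.47 for Ndufs7 and 1.06 for Ndufv1, and the lowest values on leaving out were 0.57 and 0.38.

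Ndufs1 and Ndufa6 did not pass. Ndufs1, the largest subunit, which holds iron-sulphur clusters at the tip of the peripheral arm, had 33, 30.8 and 48.1 CPM in N and 32.6, 37.9 and 31.5 CPM in KP (log2 fold change -0.13 ± 0.28, edgeR adjusted p = 0.781, and 0.09 without N replicate 3). Its groups overlapped. Ndufa6, which binds the acyl carrier protein Ndufab1 (chr15:82350140-82354322), had 237, 324 and 311 CPM in N and 290, 239 and 200 CPM in KP (log2 fold change -0.26 ± 0.27, edgeR adjusted p = 0.533). In 1 of the 18 fits that left out a lysate or replicate, that without N replicate 1, Ndufa6 was called lower (-0.43, adjusted p = 0.193).

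**Figure D1:**
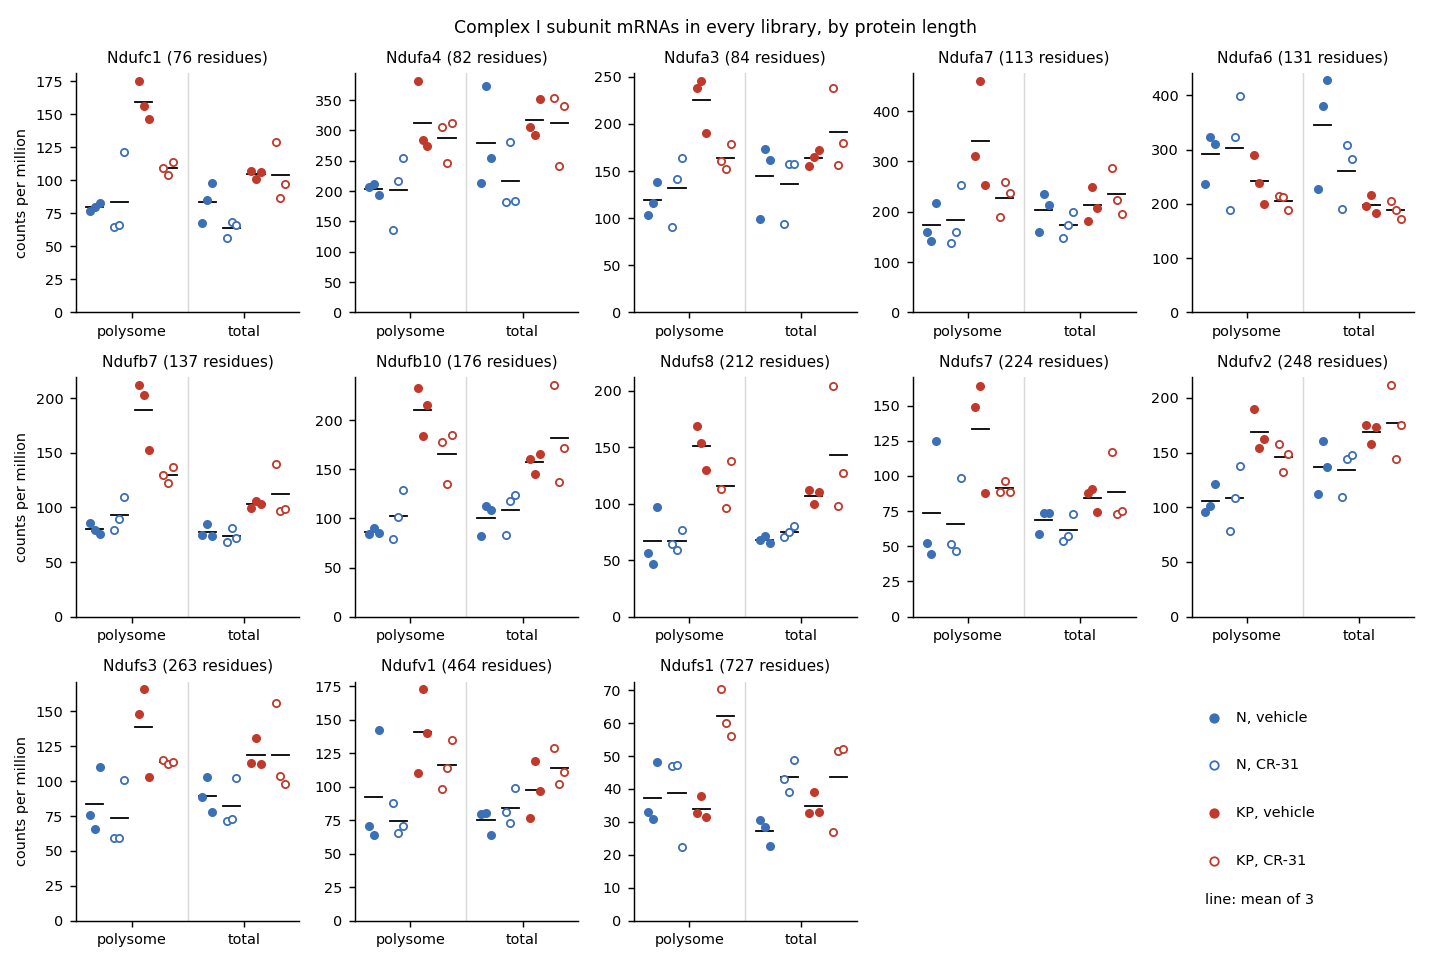
CPM (vertical axis, from 0) of 13 subunits in all 24 libraries, ordered by protein length. Points are single libraries, lines the mean of 3, blue N, red KP, filled vehicle and open CR-31. For Ndufb10 and Ndufb7 the 3 vehicle KP polysome libraries lie above all N ones, while for Ndufs1 the KP polysome libraries with CR-31 (56.2 to 70.2) lie above those with vehicle (31.5 to 37.9).

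In all 18 fits that left out 1 lysate or both lysates of 1 replicate, 16 members kept their call, among them Ndufb10, Ndufb7, Ndufs8, Ndufc1, Ndufa3, Ndufa7 and Ndufv2. The count was 17 without KP replicate 1 or without N replicate 2, and 30 without N replicate 3. Without N replicate 3 the shares of all tested genes also rose, from 20.9% to 26.3% higher and from 22.2% to 26.3% lower. The shares beside the counts of 17 are not given. At an adjusted p under 0.05 14 members were higher, where 8.02% of all tested genes were, and of the core subunits Ndufs8 was the only one among them.

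In total mRNA the members differed by smaller fold changes. In 16 of 33 members the KP lysates lay above all N lysates, against 15.9% of all tested genes. In the test 9 of 33 were higher in KP and 1 was lower (edgeR), where 13.1% and 15.4% of all tested genes were called, and the median log2 fold change was 0.32 (0.19 without N vehicle replicate 1), against -0.03 over all tested genes. Ndufb10 had 82.6, 113 and 109 CPM in N and 161, 145 and 166 CPM in KP total mRNA, without overlap (log2 fold change 0.64 ± 0.23, adjusted p = 0.113). Ndufs8 had 67.6, 71.6 and 65.4 CPM in N and 112, 100 and 110 CPM in KP, also without overlap (log2 fold change 0.65 ± 0.23, adjusted p = 0.101). Ndufb7 was at 0.40 ± 0.18 (adjusted p = 0.182). These calls depended on single libraries: the count of called members was 3 without KP vehicle replicate 1 or N vehicle replicate 3, between 4 and 6 without KP vehicle replicates 2 or 3, N vehicle replicate 1, KP replicates 2 or 3, or N replicates 2 or 3, and 17 without KP CR-31 replicate 1. The shares of all tested genes called in these left-out fits are not given. At an adjusted p under 0.05 the count was 0, where 3.61% of all tested genes were higher and 5.38% lower.

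Ndufa6 was the member lower in KP total mRNA, and the one called in all 18 fits with a lysate or replicate left out. It had 228, 380 and 428 CPM in N and 196, 216 and 183 CPM in KP, with no overlap, a log2 fold change of -0.80 ± 0.25 and an edgeR adjusted p of 0.0655. Its polysome-associated mRNA was at -0.26, as given above.

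**Figure D2:**
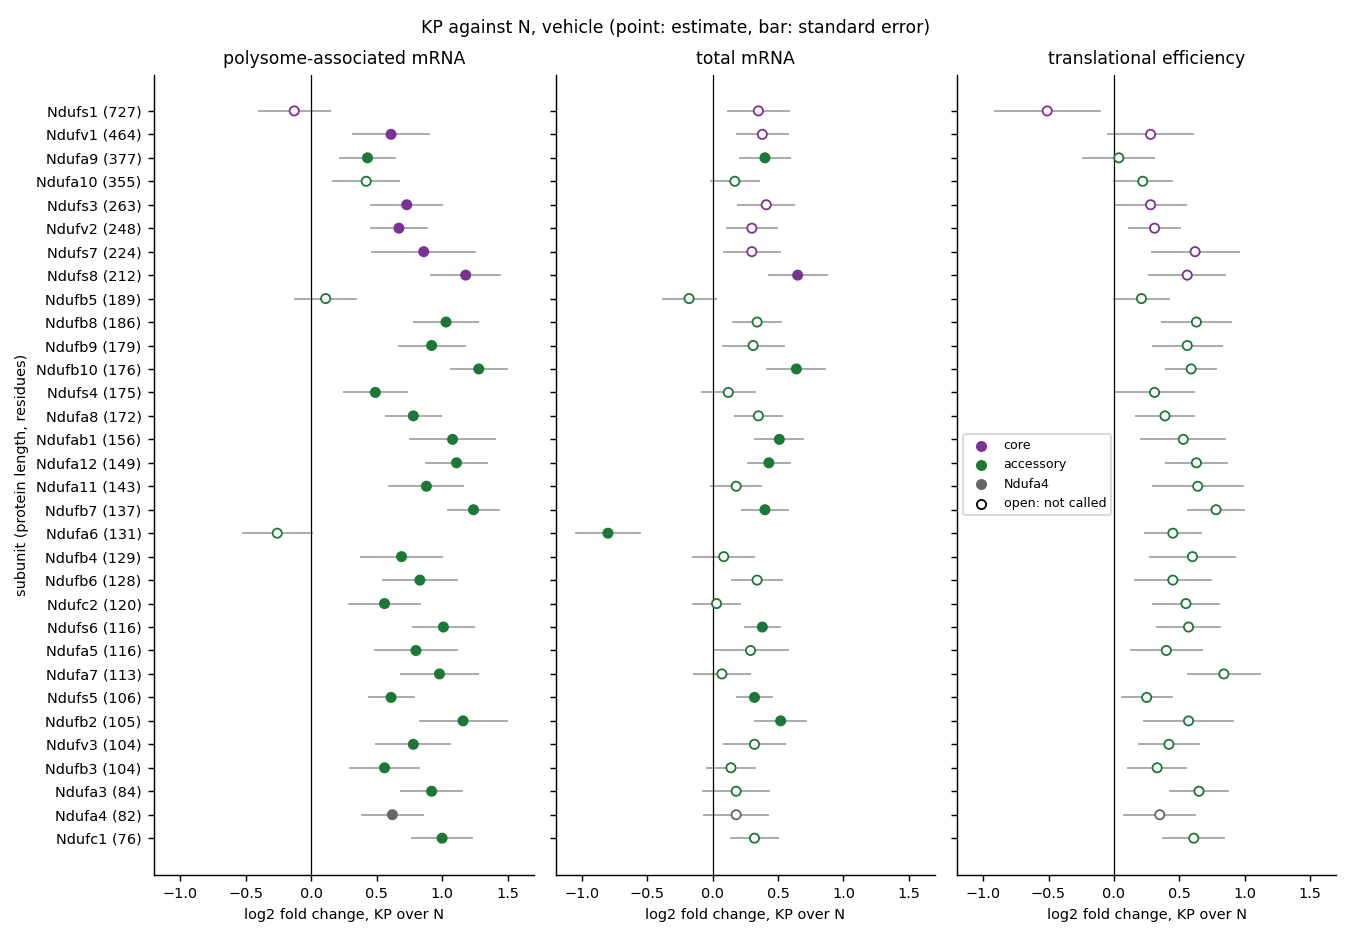
Log2 fold change of KP over N under vehicle (horizontal axis) for 32 subunits, ordered by protein length, in polysome-associated mRNA, total mRNA and translational efficiency. Bars are standard errors and filled points passed an adjusted p under 0.25 (28, 10 and 0 subunits). Ndufs1, at the top, lies at -0.13, 0.35 and -0.51.

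Translational efficiency, the polysome difference beyond that of total mRNA, was positive in 32 of 33 members, with a median log2 difference of 0.45 and Ndufs1 (-0.51 ± 0.41) as the exception. That median was 0.26 without N vehicle replicate 2, and Ndufs1 was at -0.18 without N replicate 3. No member passed in edgeR (0 of 33, as for 0% of all tested genes). The smallest adjusted p was 0.433, and 8 members had an unadjusted p under 0.05. Ndufa7 had the largest value (0.84 ± 0.28), followed by Ndufb7 (0.78 ± 0.22). DESeq2 called 4 members higher (Ndufb10, Ndufa3, Ndufb7 and Ndufa7), where it called 1.23% of all genes higher. A regression of polysome-associated on total mRNA called 9 members higher, where 6.62% of all genes were. Without N vehicle replicate 3 edgeR called 16 members (18.8% of all genes), without N CR-31 replicate 3 it called 1 (3.54% of all genes), and without both lysates of N replicate 3 it called 26 members higher and 0 lower, where 20% of all genes were higher.

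The values were also read by length class. In KP against N polysomes 16 of 17 short members were higher (median log2 fold change 0.83), 10 of 11 middle ones (0.86) and 2 of 5 long ones (0.43). All tested genes shifted with length in the same comparison: of those with up to 150 residues 318 of 813 were called higher (39.1%, median 0.37), of the middle class 31.4% (median 0.20) and of the long class 16.3% (median -0.14). In total mRNA the medians of short, middle and long members were 0.29, 0.34 and 0.35, and those of all tested genes -0.03, -0.06 and -0.02. In translational efficiency the short members had a median of 0.57 and all tested short genes one of 0.36, the long members 0.22 and all tested long genes -0.12. Without N replicate 3 the long members Ndufa10, Ndufa9, Ndufv1 and Ndufs1 were at 0.44, 0.39, 0.75 and -0.18. With it they were at 0.22, 0.04, 0.28 and -0.51. The long class has 5 members. Neither the difference between classes nor the part of protein length in the members' values was tested.

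**Figure D3:**
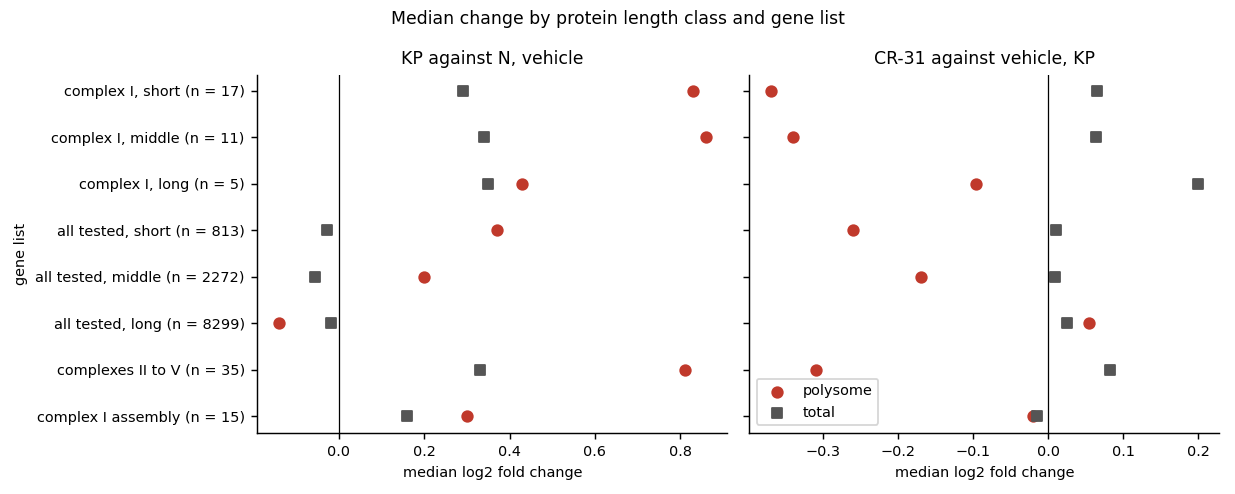
Median log2 fold change (horizontal axis) by gene list, in polysome-associated (circles) and total mRNA (squares), for KP against N under vehicle and for CR-31 against vehicle in KP. Short is up to 150 residues and long over 300. Short complex I members lie at 0.83 and -0.37 in polysomes, all tested short genes at 0.37 and -0.26.

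The second comparison asked what 1 h of CR-31 does to the polysome-associated mRNA of KP organoids. All members except Ndufs1 had a lower estimate with CR-31 (32 of 33), at a median log2 fold change of -0.34 against -0.02 over all tested genes. In edgeR without the replicate number 0 of 33 passed (0% of all genes, all adjusted p = 1), and 3 members had an unadjusted p under 0.05, Ndufs1, Ndufb7 and Ndufc1. DESeq2 also called 0. Vehicle and CR-31 lysates of the same number deviated together, and with the number as a block 9 members passed: 8 were lower (Ndufa7, Ndufc1, Ndufb7, Ndufb4, Ndufs7, Ndufb9, Ndufa3 and Ndufb8), where 11.1% of all genes were, and 1 was higher, Ndufs1, where 8.3% were. With the block and without N replicate 3, an alternative chosen after seeing the data, 25 members were lower and 1 higher, where 29.5% and 25.4% of all genes were.

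Ndufa7 had 310, 459 and 254 CPM in KP polysomes with vehicle and 190, 258 and 238 CPM with CR-31. Its log2 fold change was -0.58 ± 0.29, with the block -0.55 (edgeR adjusted p = 0.195). Ndufb7 had 212, 203 and 153 CPM with vehicle and 130, 122 and 137 CPM with CR-31. These did not overlap, and the log2 fold change with the block was -0.53 (adjusted p = 0.195). Ndufc1 fell from 175, 156 and 146 to 109, 104 and 114 CPM, also without overlap, by a log2 fold change with the block of -0.54 (adjusted p = 0.196). Ndufa3 fell from 238, 246 and 190 to 161, 152 and 179 CPM, a log2 fold change with the block of -0.45 (adjusted p = 0.22).

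Of the 7 core subunits 6 had a lower estimate with CR-31, and with the block 1 of them was called lower. Ndufs7 had 149, 164 and 87.6 CPM with vehicle and 88.7, 96.6 and 88.5 CPM with CR-31, and its log2 fold change was -0.50 with the block (adjusted p = 0.204), although replicate 3 was equal to within 1 CPM. Estimates without a call were -0.39 ± 0.27 for Ndufs8, -0.29 ± 0.27 for Ndufs3, -0.28 ± 0.30 for Ndufv1 and -0.21 ± 0.22 for Ndufv2. Short Ndufa4 (-0.12 ± 0.24) and Ndufa6 (-0.24 ± 0.27) were not called either, and Ndufb10 was at -0.34 ± 0.22.

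Ndufs1 went the other way. Its KP polysome libraries had 32.6, 37.9 and 31.5 CPM with vehicle and 70.2, 60.1 and 56.2 CPM with CR-31. Every CR-31 library was above every vehicle library, by a log2 fold change of 0.87 ± 0.28 (edgeR adjusted p = 1 without the block and 0.193 with it). In KP total mRNA Ndufs1 had 32.6, 39.1 and 33.1 CPM with vehicle and 27, 51.4 and 52.2 CPM with CR-31, with overlap (log2 fold change 0.32 ± 0.24). In N total mRNA it had 30.6, 28.5 and 22.8 CPM with vehicle and 43.1, 39.1 and 48.8 CPM with CR-31, without overlap, and its log2 fold change of 0.68 ± 0.25 was not called (edgeR adjusted p = 1, with the block 0.532). In N polysomes the values were 33, 30.8 and 48.1 CPM with vehicle and 47, 47.3 and 22.5 CPM with CR-31, where replicate 3 ran against the other two.

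The lower estimates came from replicates 1 and 2. In KP polysomes 30 of 33 members were lower with CR-31 in replicate 1 (median log2 difference -0.46), 32 of 33 in replicate 2 (-0.53) and 13 of 33 in replicate 3 (0.05). Over all tested genes the medians lay between -0.02 and -0.01, while all tested short genes had -0.35, -0.32 and -0.08. 13 members were lower in all 3 replicates and Ndufs1 was the only one higher in all 3. Replicates 1 and 3 compare lysates of the same lane or run and replicate 2 does not. With lane or run as a term the median was -0.25 and 0 members passed in edgeR. Without KP replicate 3 the members' median was -0.44, and without KP replicate 1 it was -0.25. The vehicle polysome library of KP replicate 3 had immune markers at 33 CPM, against 0.926 CPM in its CR-31 partner. The part of this in the replicate 3 values was not tested.

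**Figure D4:**
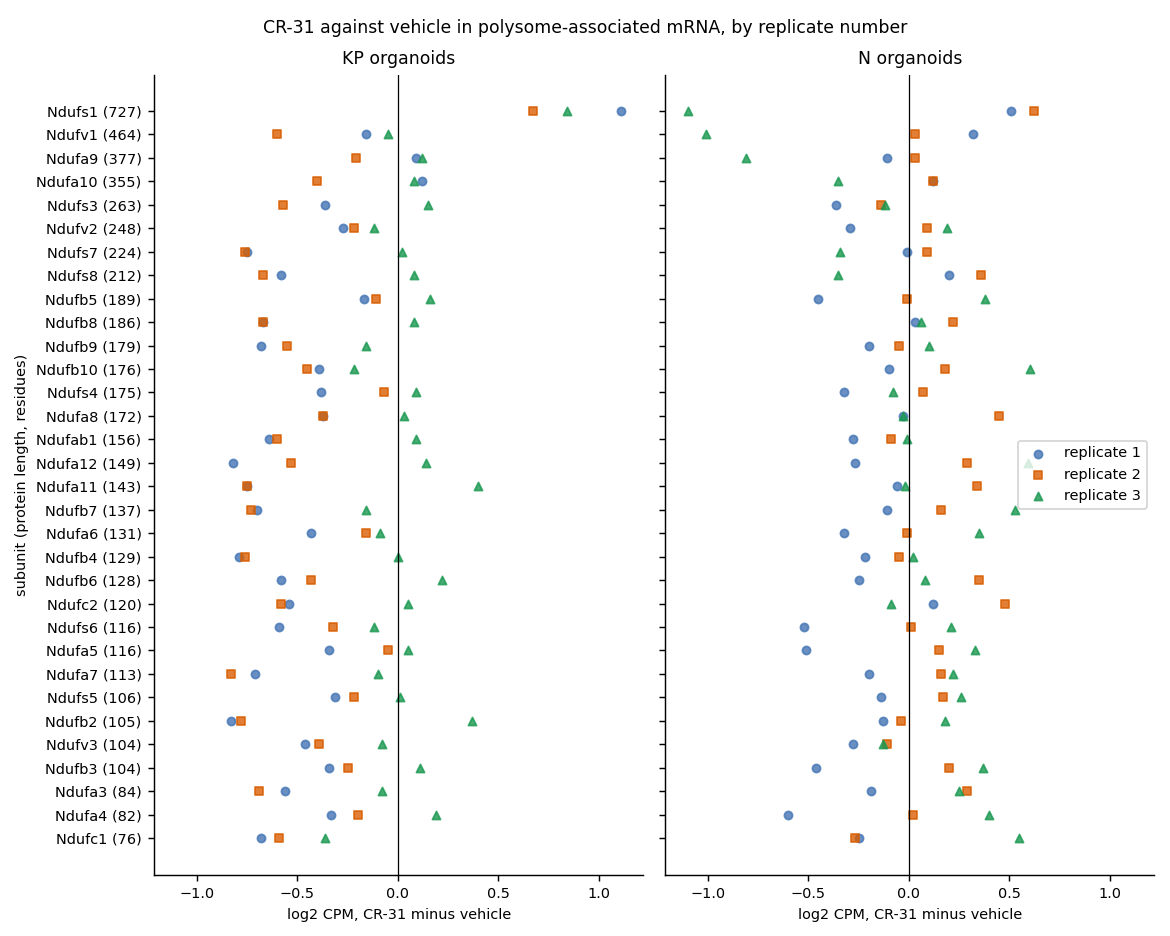
Log2 CPM of polysome-associated mRNA with CR-31 minus that with vehicle of the same replicate number (horizontal axis) for 32 subunits, ordered by protein length. Circles are replicate 1, squares replicate 2 and triangles replicate 3. In KP the circles and squares of most members lie below 0 and the triangles near it, and Ndufs1 lies at 1.11, 0.67 and 0.84.

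In KP total mRNA the members' median was 0.07 on the log2 scale with CR-31 and none passed in edgeR (0 of 33, 0 at an unadjusted p under 0.05). By replicate the medians were 0.45, -0.20 and 0.00, and the fitted median was -0.11 without KP replicate 1 and 0.24 without KP replicate 2. The high value belonged to KP CR-31 replicate 1, in which Ndufs8 had 204 CPM against 98.1 and 127 CPM in the other CR-31 lysates, and Ndufb7 140 CPM against 96.3 and 98.8 CPM. Translational efficiency had a median log2 difference of -0.33, with 28 of 33 members below 0 and none called (smallest edgeR adjusted p 0.529, 7 members at an unadjusted p under 0.05). That median was -0.07 without KP replicate 1 and -0.51 without KP replicate 3. All tested genes had a median of 0.04, and all tested short genes one of -0.20, with 550 of 813 below 0. Nuclear subunits of complexes II to V had one of -0.29, with 30 of 35 below 0. The regression on total mRNA with the block called 3 members, 2 lower and 1 higher, where 13.8% of all genes were called.

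In N organoids no member passed for CR-31 against vehicle. Median log2 fold changes were 0.04 in polysome-associated mRNA, -0.10 in total mRNA and 0.11 in translational efficiency, with 0, 2 and 0 members at an unadjusted p under 0.05. Leaving out lysates or replicates moved these medians to between -0.22 and 0.18, between -0.19 and -0.01, and between -0.11 and 0.26, so that the polysome and efficiency medians have no steady sign. In N polysomes 26 of 33 members were lower in replicate 1 (median -0.20), 10 in replicate 2 (0.09) and 13 in replicate 3 (0.10), so that the direction changed with the replicate. Ndufb7 had 85.7, 79.6 and 75.6 CPM with vehicle and 79.4, 89.2 and 110 CPM with CR-31. Ndufa3 had 103, 116 and 138 CPM with vehicle and 90.6, 142 and 164 CPM with CR-31. Both groups overlapped. No member had all 3 vehicle lysates above all 3 CR-31 lysates in N polysomes, against 1.24% of all tested genes. In KP polysomes 5 of 33 had (Ndufa3, Ndufb4, Ndufb7, Ndufb9 and Ndufc1), against 10.5% of all tested genes, a share near the background.

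Whether CR-31 acted on KP and N organoids differently was tested directly. In polysome-associated mRNA the KP effect was lower than the N effect in 30 of 33 members, with a median difference of -0.35 on the log2 scale, and 0 passed in edgeR (smallest adjusted p 0.999, 1 at an unadjusted p under 0.05) or in DESeq2. The members' median was -0.05 without N CR-31 replicate 3 and -0.57 without N vehicle replicate 3. In all tested short genes the KP effect was also the lower one in 686 of 813 (median -0.31). The same held for 31 of 35 nuclear subunits of complexes II to V (median -0.35). In translational efficiency the members' median difference was -0.39 and 0 members passed (smallest adjusted p 0.419, 5 at an unadjusted p under 0.05), although 3 did without N CR-31 replicate 2, where 16.6% of all genes did. That median was -0.17 without KP replicate 1 and -0.61 without KP replicate 3. All tested short genes had a median of -0.39, and the subunits of complexes II to V one of -0.47. For Ndufs1 the difference was 0.81 in polysome-associated mRNA and 1.34 in translational efficiency, and 0.30 and 0.58 without N replicate 3. With the block and without N replicate 3, 10 members were lower in KP than in N, where 15.9% of all genes were.

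KP and N organoids with CR-31 were compared by their levels, without a test. In polysomes 32 of 33 members had a higher mean in KP, with a median log2 difference of 0.49, and 13 had 3 KP lysates above all N lysates, against 14.4% of all tested genes. In total mRNA with CR-31 the median log2 difference was 0.44, with 30 of 33 higher and 16 not overlapping, against 15% of all tested genes. Under vehicle the corresponding medians of log2 CPM were 0.80 and 0.33.

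Within each group, polysome-associated and total mRNA of the same lysates were compared. In vehicle-treated N organoids 4 members were lower in polysomes (Ndufa12, Ndufb5, Ndufa4 and Ndufv2) and 0 higher (edgeR with the lysate as a block), where 6.36% of all genes were lower and 8.83% higher, and the median log2 ratio was -0.27. In vehicle-treated KP organoids 10 members were higher and 0 lower, where 14.2% of all genes were higher, with a median of 0.19. Ndufb7 led these with 0.77 ± 0.15 (adjusted p = 0.0449). With CR-31 4 members were lower in N (median -0.18, 10.7% of all genes lower and 7.81% higher) and 2 in KP (median -0.06, 6.5% of all genes lower, 20.2% called in either direction). Without the lysate block 0, 1, 0 and 0 members passed in N vehicle, N CR-31, KP vehicle and KP CR-31. These counts and medians rested on single lysates. The median ratio in N vehicle was -0.45 without N replicate 3 and -0.04 without N vehicle replicate 2, and in N CR-31 it was -0.28 without N replicate 3 and -0.08 without N CR-31 replicate 2. In KP vehicle it was 0.05 without KP vehicle replicate 1 and 0.33 without KP vehicle replicate 3, and in KP CR-31 it ranged from -0.16 without KP CR-31 replicate 2 to 0.02 without KP CR-31 replicate 1. In N vehicle the count was 0 without N vehicle replicate 2 or both lysates of N replicate 2, 2 without KP replicate 2 or 3, 7 without KP CR-31 replicate 1, 14 without N vehicle replicate 3 (22.1% of all genes) and 21, all lower, without N replicate 3 (35.7% of all genes). In KP vehicle it was 0 without KP vehicle replicate 1 or 2 or KP replicate 2 or 3, 1 without KP replicate 1, 3 without N replicate 1, 4 without KP vehicle replicate 3, 6 without N CR-31 replicate 1 and 17 without N replicate 3, of which 15 were higher, where 47.8% of all genes were called. With CR-31 the count rose to 9 in each type without N replicate 3 (19.1% of all genes in N and 39.7% in KP), to 5 in KP without N vehicle replicate 3 (26.8% of all genes), and was at most 2 in N and at most 1 in KP wherever else it moved by over 1.5 times.

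Over the 33 members the polysome to total ratio had no steady relation with coding length. Spearman's rho, given as a description over members of the same library, was -0.57, 0.08 and 0.50 in the N vehicle lysates and -0.48, -0.17 and -0.01 in the KP vehicle lysates. With CR-31 it was -0.06, -0.14 and -0.51 in N and -0.07, -0.14 and -0.08 in KP. Over the 11384 tested genes with a length the values were 0.31, 0.57 and 0.14 in N vehicle and -0.29, -0.13 and 0.03 in KP vehicle. With CR-31 they were 0.36, 0.41 and -0.03 in N and 0.13, 0.02 and 0.09 in KP. Over members the lysates of the KP CR-31 group lay close together, while those of the other groups spread widely.

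The members' median ratio also spread within groups. It was -0.19, -0.67 and 0.07 in N vehicle, 0.45, 0.25 and -0.12 in KP vehicle, -0.19, -0.33 and 0.10 in N CR-31 and -0.39, 0.09 and 0.00 in KP CR-31. KP vehicle replicate 3 lay among the N values. Ndufs1 had ratios between -0.16 and 0.21 in 9 of 12 lysates and stood far off in the other 3, at 1.02 in N vehicle replicate 3, -1.19 in N CR-31 replicate 3 and 1.39 in KP CR-31 replicate 1.

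**Figure D5:**
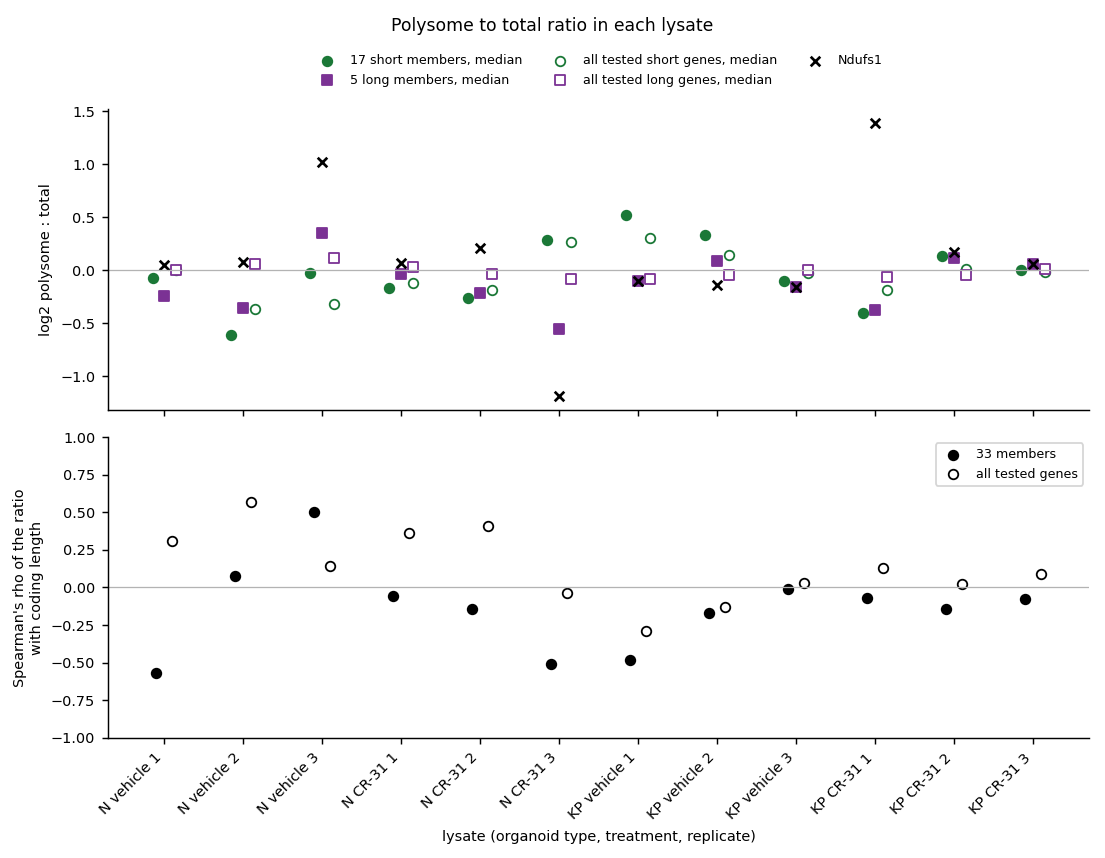
Above, the log2 polysome to total ratio (vertical axis) in each of the 12 lysates as the median of short members (filled circles), long members (filled squares) and all tested short and long genes (open symbols), and of Ndufs1 (crosses). Below, Spearman's rho of the ratio with coding length over the 33 members (filled) and over all tested genes (open), which ranges from -0.57 to 0.50 over members.

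The 6 members with the start letters AAGATGGCGGC were not alike. In KP against N polysomes 4 of 6 were higher, from -0.26 for Ndufa6 to 1.01 for Ndufs6 with a median of 0.46, and over the 124 tested genes with these letters 27.4% were higher, with a median of 0.15. With CR-31 in KP polysomes their median was -0.31, against -0.08 over the 124 genes.

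Other genes of the pathway were counted for comparison. Of 15 tested complex I assembly factors, which help build the complex and are not part of it, 6 were higher in KP than in N polysomes and 0 lower, at a median of 0.30 on the log2 scale. Of 35 nuclear subunits of complexes II to V, 28 were higher and 1 was lower, with a median of 0.81, where 20.9% and 22.2% of all tested genes were. In total mRNA 2 of 15 assembly factors were higher (median 0.16), and 11 of 35 subunits of complexes II to V (median 0.33), where 13.1% of all tested genes were. With CR-31 in KP polysomes the medians were -0.02 for the assembly factors and -0.31 for complexes II to V, with none called.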

How the data were processed

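The study sequenced polysome-associated and total mRNA of 12 lysates. The authors aligned read pairs with HISAT2, discarded reads with several matches and deposited counts and RPKM values per RefSeq gene. Their processing notes name SAMtools and the human build hg38 (GRCh38), while the genes are mouse genes. Deposited counts were not normalized, replicates were not pooled, and 0 sample columns were left out. RPKM values served only for levels per length. Genes with one symbol and a count above 0 in all 24 libraries were tested. Counts were TMM-normalized and tested in R 4.3.3 with edgeR 4.0.16 (quasi-likelihood) in a model of the 4 groups of each fraction, and translational efficiency by the fraction-by-group interaction, blocked by lysate. P-values were adjusted (Benjamini-Hochberg) over 11438 genes, with the study's threshold of 0.25. Standard errors are the absolute log2 fold change divided by the square root of edgeR's F statistic. Their dispersion was estimated over all libraries of the model. CPM values refer to TMM-scaled libraries, so a change common to all mRNAs cannot be seen. Marker sums refer to the reads counted on entries with a single symbol that occurs only once. Single-lysate ratios used a prior count of 0.5. DESeq2 1.42.0 and limma 3.58.1 (regression of polysome-associated on total mRNA) gave alternatives. The edgeR fits with and without the replicate block, DESeq2 and the regression without the block were run on simulated counts. Those counts held no effect of lysate or replicate, and the other alternatives were not simulated. Vehicle and CR-31 lysates of one number deviated together in N (correlations of 0.554 to 0.892) and in KP (0.455 to 0.803), while N with KP gave -0.168 to 0.279 (negative for replicate 2), so the numbers were taken to pair treatments within an organoid type. Coding lengths and start codons came from GENCODE M21 (GRCm38) by RefSeq accession, for 33 of 33 members and 99.53% of tested genes. Some genes and alleles are not reported here. Members and lists were chosen with earlier results of these data known. Values in every library are given for the reported core subunits, Ndufa3, the 3 shortest members, and the 3 largest differences in each direction in KP against N polysomes and with CR-31 in KP polysomes. No more than 2 members were lower in the first and 1 higher in the second.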

Additional observations from a re-analysis of the deposited data

How the results depend on the processing

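Where the reported count of called members was above 0, 82 of 150 counts under an alternative stayed within 1.5 times of it, and no called member named here changed sign. In KP against N polysomes the count of 28 became 14 at a threshold of 0.05, and leaving out lysates or replicates gave 17 to 30. In total mRNA the count of 10 became 0 at 0.05, with 3 to 17 on leaving out. For translational efficiency DESeq2 gave 4 and the regression 9, with 0 to 26 on leaving out. With CR-31 in KP the replicate block gave 9 in polysomes and the regression with the block 3 in translational efficiency. The block with N replicate 3 left out, chosen after seeing the data, gave 26 in KP polysomes (54.9% of all genes), 16 in KP translational efficiency (46.1%), 1 in N polysomes (15%) and 10 for the difference in polysomes (27%). That pairing changed no other count by more than 1.5 times. The difference in translational efficiency gave 0 to 3 on leaving out. For polysome against total, N vehicle gave 0 at 0.05, 0 without the lysate block and 0 to 21 on leaving out. N CR-31 gave 0, 1 and 1 to 9, and 2 with no filter. KP vehicle gave 1, 0 and 0 to 17, and 5 with no filter. KP CR-31 gave 0, 0 and 0 to 9, and 1 with no filter. Where no value above shows it, the cause was not tested. Every member had at least 877 counts in each library, and each group had 3 lysates. With a shared replicate block between N and KP, numbers that do not pair, 30 members were called in polysomes.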
